A study of Drosophila melanogaster with 47 samples.

Results

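CG8478 was the only regulator called at 458 of the 6511 merged binding regions of this series (7.03%), all of them found in cultured S2 cells of Drosophila melanogaster. The regions were chosen by position. The peaks of all 16 deposited lists on the 6 main chromosome arms (2L, 2R, 3L, 3R, 4 and X) were merged wherever they shared at least 1 bp, and merged regions that held a CG8478 peak and no peak of another list were kept. Each of the 458 regions held 1 CG8478 peak. The other 875 of the 1333 CG8478 peaks on the arms lay in 770 regions shared with another list.

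Each list came from chromatin immunoprecipitation followed by sequencing, in which an antibody pulls down a protein together with its DNA and that DNA is sequenced. CG8478 was precipitated in 2 replicates from S2 cells with the antibody KW1-CG8478-D1, and 1 input sample of S2 chromatin was labelled beside them. The comparisons used the 3 longer lists of Su(H) from Kc167 cells (antibody Su(H)d-300, 3 replicates), of Cmi from embryos of 0 to 8 h of the Exd-GFP stock (antibody KW1-cmi, 2 replicates), and of Notch from larvae, stage label W3L, of a Notch-GFP stock (anti-GFP antibody, 2 replicates). The remaining 12 lists covered AbdB, Hr78 and Lola in W3L larvae of the stocks AbdB-GFP, Hr78-GFP and LolaI-GFP with anti-GFP, Hr78 in embryos of 8 to 16 h (Hr78-GFP) and Stat92E in embryos of 0 to 12 h (Stat92E-GFP) with the same antibody, prd in embryos of 0 to 12 h with antibodies RF12 and RF13, br in embryos of 0 to 8 h, cnc in adult females, and dm, h and insv in Kc167 cells, each of the last 5 with an antibody named for the regulator. S2 is the only line behind the CG8478 list and no other list came from S2 cells, so the regulator and the cells cannot be told apart.

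CG8478 is a protein-coding gene that carries only its annotation number as a name, in the RefSeq table of genes as well as in the labels. S2 and Kc167 are long-established lines grown from embryos, with traits of the blood cells that engulf debris, S2 with a male and Kc167 with a female chromosome constitution. In flies many regulators are recovered at the same stretches of open chromatin. A region called here for a single regulator held no peak of the other 15 lists, and regulators outside the series were not measured. Su(H) is the DNA-binding protein of the Notch pathway, Notch is the receptor whose intracellular part acts with it in the nucleus, and Cmi belongs to a coactivator complex that methylates histones.

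All values of a peak are the authors' own. The fold is a linear ratio of a peak to its background, the score is the −log10 p of the peak caller, and both describe peaks within 1 list only. The labels do not say which control sample stood for the background of either value. The lists hold no value per replicate and no read depth, so no spread between replicates could be set against any difference. Because the members were picked by the overlap of the lists, differences in score, fold, width and distance are descriptions without a test. Intervals of shares are exact 95% binomial ones (Clopper-Pearson) and take in counting error alone. Positions are 1-based on build dm3. Genes and sequences at the regions were not analysed here, since the genome used for gene names is a later assembly.

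The regions with CG8478 alone made up 34.4% of the CG8478 peaks on the arms (31.8 to 37.0). This places the list in the middle of the 16, eighth from the top. The share in 1 list was higher for cnc (66.9%), prd with RF12 (60.9%) and br (58.2%), and it was 46.4% for Cmi and 45.0% for Su(H). Notch, whose list is the longest, had 33.4% (31.5 to 35.3). At the other end stood AbdB with 3.88% and Hr78 of larvae with 6.81%. Of all merged regions 4197 (64.5%) held a single list, and 10.9% of those were CG8478 regions.

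Regions with CG8478 alone included some of the best peaks of the list, and most were weak. Their scores ran from 4.75 to 25.5 with a median of 5.72 (quartiles 5.19 and 7.05), against a median of 6.68 for shared CG8478 peaks (quartiles 5.66 and 9.08). Their fold had a median of 2.59, against 2.76 for shared peaks. The widths of alone peaks had a median of 232.5 bp (quartiles 145 and 354 bp) and those of shared peaks 387 bp (231 and 591 bp). The ranges of both kinds overlapped almost entirely for score, while 36 of 458 alone peaks (7.86%) and 161 of 875 shared peaks (18.4%) had a score of 10 or more. Peaks over 1000 bp wide numbered 6 among the alone and 44 among the shared ones. The median summit position was 50.6% of the width in alone and 49.0% in shared peaks. The summit lay in the middle 50% of the width in 67.9% of alone and 72.1% of shared peaks.

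The share of peaks alone was highest among the weak and narrow peaks and lowest among the strong and wide ones. Of the 134 lowest-scoring peaks, 71 were alone (53.0%, 44.2 to 61.7), and of the 133 highest-scoring peaks 25 were (18.8%, 12.5 to 26.5). By width the span was wider, with 80 of the 134 narrowest peaks alone (59.7%, 50.9 to 68.1) and 18 of the 133 widest (13.5%, 8.22 to 20.5). Wider peaks also had the higher scores, and the part of width in the overlap was not tested. Among the widest 333 peaks the median score was 9.25 for the 55 alone and 9.41 for the 278 shared ones, so that at this width the scores lay close to each other. Among the narrowest 334 peaks the medians were 5.33 for 177 alone and 5.50 for 157 shared peaks. In the 333 peaks next above the narrowest, the medians were 5.68 for alone and 6.11 for shared peaks, and in the 333 next below the widest they were 6.32 and 7.18. Near the top of the list the share alone did not fall further, at 18 of the best 100 peaks and 12 of the best 50.

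**Figure D1:**
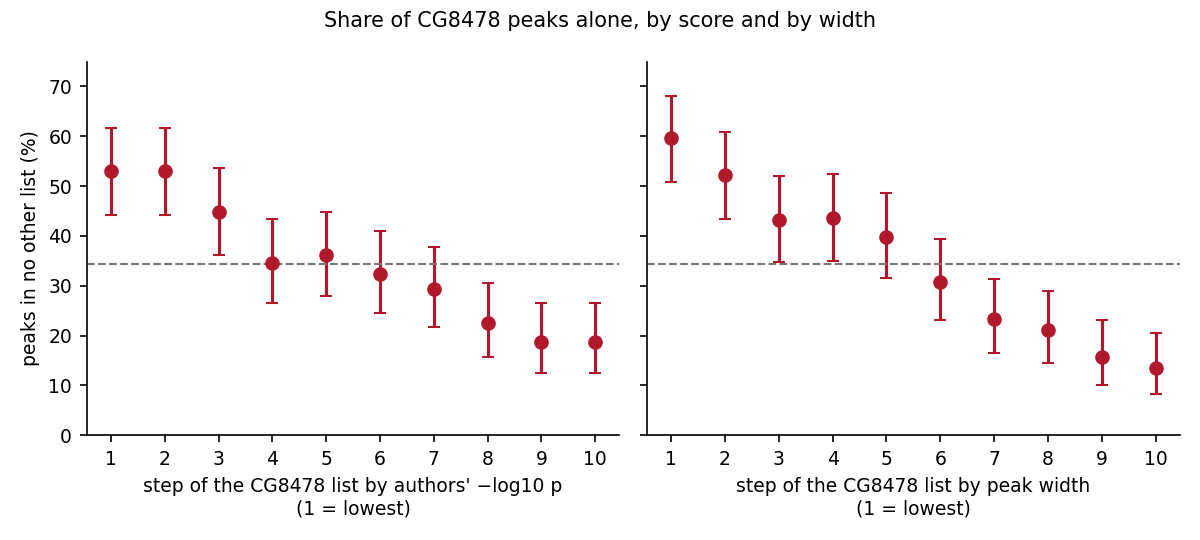
Share of CG8478 peaks that no other list touched (vertical axis, %), in 10 equal steps of the 1333 peaks on the arms ordered by the authors' −log10 p (left) or by width (right), with exact 95% intervals of counting error and the share of the whole list as a dashed line at 34.4%. The share is 53.0% in the lowest and 18.8% in the highest step by score, and 59.7% and 13.5% by width.

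Among shared peaks, medians were higher the more lists joined. The median score was 5.72 with no other list (458 peaks), 6.16 with 1 (202 peaks), 6.32 with 2 (173 peaks), 6.66 with 3 to 4 (284 peaks) and 8.27 with 5 or more (216 peaks). The median width over the same steps was 232.5, 300.5, 333, 386 and 516 bp. Alone peaks stood at the low end of this order. The middle ranges of alone peaks and of peaks with 1 other list overlapped widely, with quartiles of 5.19 and 7.05 against 5.41 and 7.72 for the score. Under the 1 bp rule a wider peak has more chance to touch another list, so the order in width is partly set by the rule. How far this holds for the score was not tested.

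**Figure D2:**
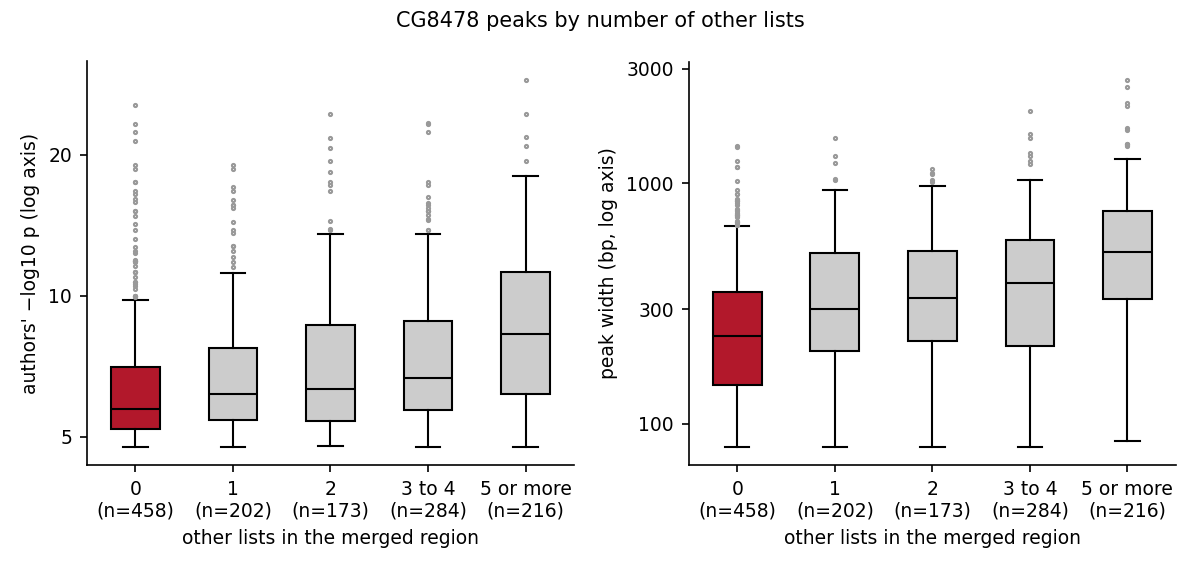
Scores (authors' −log10 p, log axis, left) and widths (bp, log axis, right) of CG8478 peaks by the number of other lists in their merged region; boxes are quartiles with the median, whiskers reach 1.5 times the box, and points lie beyond. The box of alone peaks (red) has the lowest median in both panels, 5.72 and 232.5 bp, and its outlying points reach a score of 25.5.

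The strongest region with CG8478 alone held the second-best peak of the whole list. It lay on 3L at 17995665 to 17996604, with a score of 25.5 and a fold of 5.60, and the nearest peak of another list, one of Cmi, was 982 bp away. The next was on 2L at 5460988 to 5461819, with a score of 23.2 and a fold of 5.46, and a cnc peak 15072 bp away as its nearest. The third was on 3R at 660828 to 661369, with a score of 22.3 and a fold of 5.16, and Notch at 13516 bp as its nearest. These 3 also had the highest fold of all 458.

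The best alone peak on 2R lay at 4519814 to 4520549 with a score of 21.4, and Su(H) was nearest at 13851 bp. On X the best was at 10418338 to 10419121, with a score of 17.5 and a lower fold than the others of the 10 best (3.64). Chromosome 4 had its best at 1009966 to 1010442, with a score of 14.2. The other members among the 10 best were on 3R at 26625480 to 26626716 (score 19.0), at 677989 to 678675 (17.4) and at 17259874 to 17260413 (16.7), on 3L at 14355712 to 14357147 (18.7), and on 2L at 20770307 to 20770872 (16.5). All 10 were wider than the median member, at 540 to 1436 bp. In 9 of the 10, the nearest peak of another list was over 1000 bp away, and in 8 it was over 5000 bp away. The peak on 3L at 14355712 was the widest member and lay 45381 bp from any other list.

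The widest members besides 2 of these 10 included the region on 3R at 8542842 to 8544253 (1412 bp), which had a score of 8.84 and a Su(H) peak 973 bp away. The narrowest were 80 bp, the least width in the list. They lay on 3L at 2418974 to 2419053 (score 5.36), on 3R at 661464 to 661543 (score 5.19) and on X at 2229283 to 2229362 (score 5.14). The one on 3R sat 94 bp beside the third-best alone peak. A strong member also lay at the very start of arm 2L, at 5143 to 6048, with a score of 15.1, a fold of 4.36 and no peak of another list within 29509 bp. It was chosen for naming after its values were seen.

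The rule allows no overlap with another list, so the gaps of members describe the choice itself. How they compare with the gaps of other positions was not tested. The gap to the nearest peak of another list had a median of 3343 bp (quartiles 721 and 9217 bp) and ranged from 28 to 64612 bp. A peak of another list lay within 500 bp of 91 members (19.9%), within 1000 bp of 136 (29.7%) and within 10000 bp of 353 (77.1%). Just inside the rule stood 3 narrow, weak peaks on 3R. The first, at 5055922 to 5056010, had a score of 5.19 and a Su(H) peak 28 bp away. The second, at 13527368 to 13527482, scored 5.45 with cnc at 35 bp, and the third, at 21931921 to 21932004, scored 4.78 with br at 41 bp. Just outside it, a peak on 3R at 19016923 to 19017283 (score 6.82) shared 8 bp with cnc, one on X at 3666201 to 3667242 (score 8.26) shared 10 bp with Su(H), and one on 2L at 4810095 to 4810335 (score 7.18) shared 15 bp with AbdB. Of the 875 shared peaks, 14 had their largest overlap at 50 bp or less.

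The members farthest from other lists all lay on 2L. A pair at 22363743 to 22364768 and at 22365160 to 22365369 (scores 8.66 and 8.77) was 64612 and 64011 bp from the nearest peak, one of Notch. The third, at 4118727 to 4119061 (score 5.58), was 60445 bp away. The other members without a peak of another list within 50000 bp, 5 in all, lay beside the third at 4119220 to 4119322 and at 13459062 to 13459394.

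The lists found next to members were mainly the longest ones. Within 1000 bp, Su(H) had a peak at 73 members (15.9%), Notch at 58 (12.7%), Hr78 of larvae at 33 (7.21%) and Cmi at 30 (6.55%). No dm peak and 1 Stat92E peak lay this near. Among shared CG8478 peaks, by comparison, 53.9% overlapped Su(H), 62.1% Notch, 42.5% larval Hr78 and 41.6% Cmi. The Su(H) list has 2016 peaks on the arms and Notch 2448, so Su(H) stood above Notch near the members although its list is shorter, and the order turned round among the overlaps. At 10000 bp Notch was at 226 members and Su(H) at 211.

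Set beside regions of other regulators that also held a single list, those of CG8478 had gaps near those of Su(H) and Cmi and shorter than those of Notch. Each gap was taken to the 15 lists other than the region's own, so the sets of peaks differ. The longest list, that of Notch, counted for the others and not for Notch. The part of this in the gaps was not tested. The median gap to another list was 3343 bp for CG8478 (95% order-statistic interval 2604 to 4132), 2926 bp for 908 Su(H) regions (2434 to 3638), 2990 bp for 779 Cmi regions (2510 to 3582) and 5741 bp for 817 Notch regions (4976 to 6757). Peaks of the own list lay within 1000 bp of 43.2% of CG8478 members, of 56.5% of the Su(H), 45.3% of the Cmi and 21.9% of the Notch regions. Alone peaks were narrower than shared ones in these 4 lists, at 232.5 against 387 bp for CG8478, 237.5 against 354 bp for Su(H), 329 against 485 bp for Cmi and 253 against 508 bp for Notch. In 4 of the other 12 lists alone peaks had the larger median, at 215 against 209 bp for prd with RF12, 341 against 333.5 bp for br, 293 against 275 bp for insv and 176.5 against 176 bp for h. The best-scoring region alone was second in the CG8478 list, 14th in that of Cmi, 33rd in that of Su(H) and 228th in that of Notch, which are places in lists of different length.

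**Figure D3:**
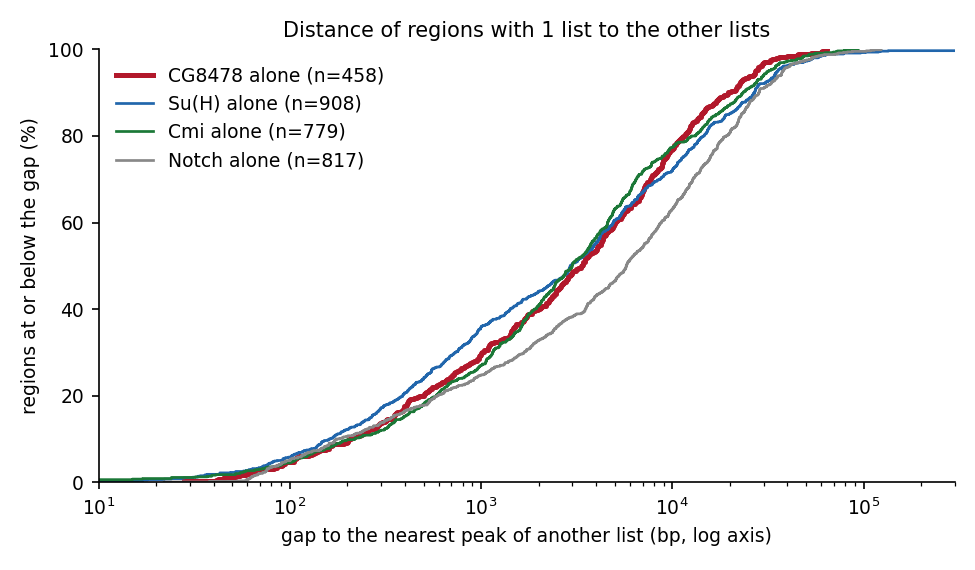
Share of regions with 1 list (vertical axis, %) whose nearest peak of another list lies at or below the gap on the horizontal axis (bp, log axis), for CG8478, Su(H), Cmi and Notch. The CG8478 curve runs near those of Su(H) and Cmi, with medians of 3343, 2926 and 2990 bp, and the Notch curve lies to the right with 5741 bp.

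Members often stood beside one another. Within 1000 bp of 151 members (33.0%, 28.7 to 37.5) lay a further alone region, and for 51 members it lay within 100 bp. Another CG8478 peak of any kind lay within 1000 bp of 198 members (43.2%, 38.6 to 47.9), and the same held for 353 of the 875 shared peaks (40.3%, 37.1 to 43.7). A shared CG8478 peak lay within 1000 bp of 64 members (14.0%). These had a median width of 212 bp, a median score of 5.61 and none above 10.9. A further 134 members (29.3%) had another alone region this near and no shared CG8478 peak, 16 of them with a peak of another list within 1000 bp as well, and 59 (12.9%) had a peak of another list and no other CG8478 peak. The remaining 201 members (43.9%, 39.3 to 48.6) had no peak of any list within 1000 bp. Their median width was 250 bp and their median score 5.95, against 387 bp and 6.68 for all shared peaks, with or without near neighbours. Shared peaks without near neighbours were not set apart, and the part of nearness in the scores was not tested.

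When members within 10000 bp of the next were joined, the 458 regions fell into 328 places, of which 247 were single regions, 59 were pairs and 22 were runs of 3 or more. The runs of 3 or more held 93 members (20.3%). The 3 largest were all on X. The run of 10 lay at 3272295 to 3284493, and its first 8 regions covered 64.6% of 4061 bp with gaps of 62 to 843 bp. Its scores lay between 4.76 and 9.40 and its folds between 2.28 and 2.98, and no peak of another list was within 5029 bp, so the whole run was clear of the other 15 lists. A run of 7 lay at 10418338 to 10430663. It began with the best alone peak on X, and 5 of its other 6 regions had folds under 2.2, a level found at 20 of all 458 members. The other run of 7, at 12613079 to 12633469, had scores of 4.94 to 8.71 and was of a different kind, since 3 shared CG8478 peaks and 20 peaks of other lists lay between its members.

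**Figure D4:**
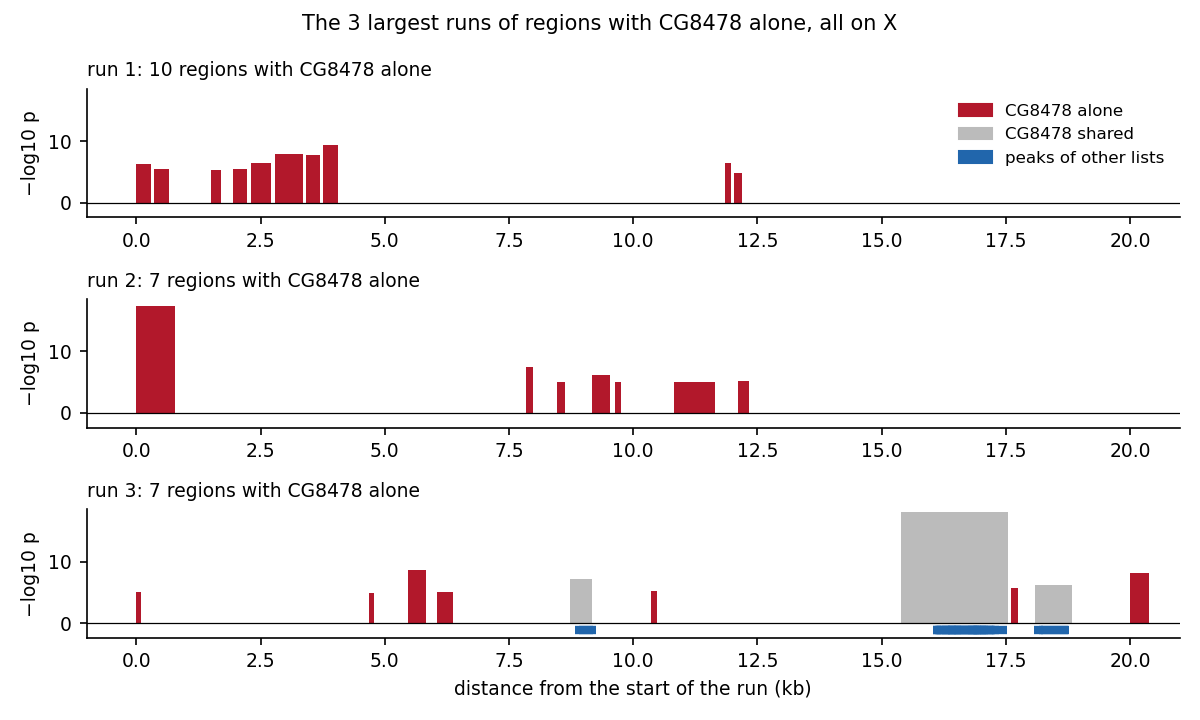
The 3 largest runs of regions with CG8478 alone, all on X, drawn to scale by distance from the start of each run (kb); bar height is the authors' −log10 p, grey bars are shared CG8478 peaks and blue marks are peaks of other lists. The first 2 runs hold no peak of another list, and the third surrounds shared peaks.

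Regions with CG8478 alone lay on X more often than shared CG8478 peaks did, and the shares of both kinds lay closer with each run counted once. On X were 108 of 458 alone regions (23.6%, 19.8 to 27.7) and 150 of 875 shared peaks (17.1%, 14.7 to 19.8). Read the other way, 41.9% of the 258 X peaks were alone (35.8 to 48.1), against 32.6% of the 1075 peaks on the other arms (29.8 to 35.5). Of the 93 members in runs of 3 or more, 42 were on X (45.2%, 34.8 to 55.8), against 44 of the 247 single regions (17.8%, 13.3 to 23.2). With each run counted once, 63 of 328 places were on X (19.2%, 15.1 to 23.9), and shared peaks joined in the same way gave 86 of 559 (15.4%, 12.5 to 18.6). The 95% intervals of alone and shared overlapped in both ways of counting, only at their ends where every region was counted by itself. Read the other way, those of the share alone did not overlap, at 35.8 to 48.1 on X and 29.8 to 35.5 elsewhere. Whether intervals overlap is not a test of a difference, and none was made. Without the runs of 3 or more alone regions, 18.1% of the alone regions were on X, with no such removal made among shared peaks. The other lists had 56.9 merged regions per Mb of span on X and 42.4 to 56.1 on the large autosome arms, and their part in the X share was not tested.

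The X share of alone and shared regions in other lists went no common way. It was 22.0% of alone and 22.6% of shared peaks for Su(H), 17.1% and 21.4% for Cmi, and 21.5% and 21.3% for Notch. The alone regions of CG8478, at 23.6%, stood near those of Su(H) and Notch and above those of Cmi. The shared peaks of CG8478, at 17.1%, stood below the shared peaks of each of those lists. Within CG8478 peaks of like width, the share alone on X was 66.1% of 56 among the narrowest, against 50.4% of 278 on the other arms. It was 53.0% of 66 on X against 39.7% of 267 elsewhere in the next step of width, 35.7% of 70 against 22.8% of 263 in the one after, and 16.7% of 66 against 16.5% of 267 among the widest. The share alone was higher on X in 3 of the 4 steps and near equal in the widest. Exact intervals of counting error for X and the other arms overlapped in every step. Among the narrowest they were 52.2% to 78.2% on X and 44.3% to 56.4% elsewhere. In the next step they were 40.3% to 65.4% and 33.8% to 45.8%, and in the one after 24.6% to 48.1% and 17.9% to 28.4%. Members of a run were counted singly here, and 42 alone regions on X lay in runs of 3 or more. The median width was 244.5 bp for alone and 426 bp for shared peaks on X. On the large autosome arms it was 219 to 242 bp for alone and 355 to 423.5 bp for shared peaks. The part of width in the X share was not tested.

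On the large autosome arms the shares of alone and of shared peaks lay closer than on X, with the alone share lower on 2R and 3L. Arm 3R had 127 alone regions (27.7% of all alone, against 27.4% of all shared peaks), 2R had 91 (19.9% against 23.7%), 3L had 64 (14.0% against 18.1%) and 2L had 63 (13.8% against 13.5%). Per Mb of the span between the outermost peaks of all lists, alone regions numbered 4.86 on X, 4.55 on 3R, 4.32 on 2R, 2.74 on 2L and 2.62 on 3L. Shared peaks numbered 6.75 on X, 8.60 on 3R, 9.83 on 2R, 5.14 on 2L and 6.46 on 3L. Chromosome 4 had 7 CG8478 peaks, of which 5 were alone. Besides its best peak they lay at 1010660 to 1010840, 1031956 to 1032051, 1042767 to 1042859 and 1277140 to 1277222, with scores of 4.76 to 5.36, and all 5 were at least 4039 bp from another list.

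**Figure D5:**
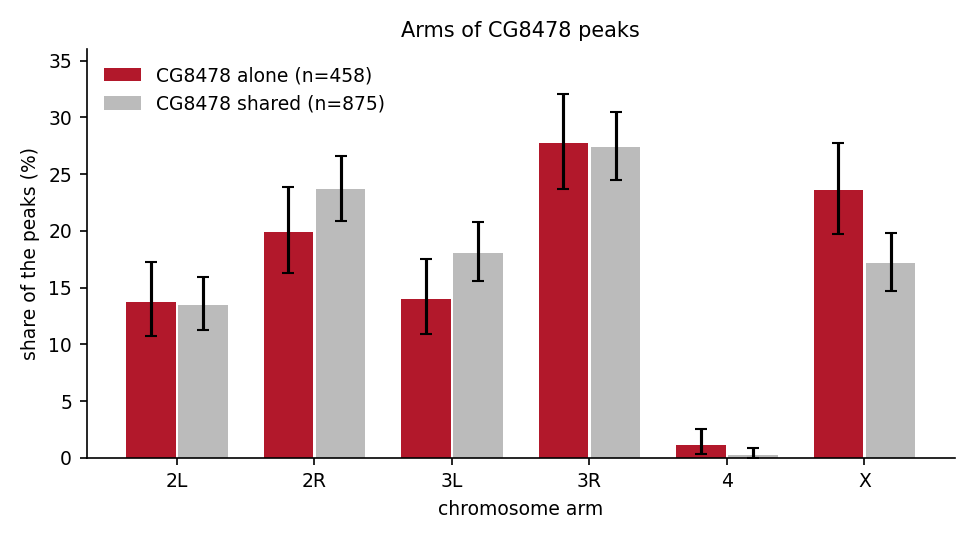
Share of CG8478 peaks on each chromosome arm (vertical axis, %), for peaks alone (red, left bar of each pair, n = 458) and shared (grey, n = 875), with exact 95% intervals of counting error. X holds 23.6% of the alone and 17.1% of the shared peaks; the other large arms differ by less.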

How the data were processed

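The 47 samples (35 immunoprecipitated, 12 input) are represented by 16 peak lists, 1 per group. BWA, MACS2 and CASAVA 1.7.0 are named with build dm3, per the submitters' processing notes. Settings, thresholds, pooling and read depth are not stated there. The deposited fold is a linear ratio over background, the deposited score is a −log10 p, and the authors' other value is the summit offset in bp. The CG8478 list had 1343 peaks, 1333 of them on the main arms, and 4 ranks without a line, not analysed here. Peaks were merged at 1 bp overlap. Gaps are bases between peaks on 1 arm. Intervals of medians are order-statistic, and no test over regions was made. Named regions are the 10 best by score, the best on each arm, the 3 best by fold, the extremes of width, gap and overlap, and the 3 largest runs. The members and rules were chosen with earlier results of these data known. The code was checked on simulated lists. Alternatives changed the overlap rule, peak widths, thresholds and lists. Python 3.11.15, numpy 2.4.6, scipy 1.17.1, pandas 2.3.3 and matplotlib 3.10.9 were used.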

Additional observations from a re-analysis of the deposited data

Results flagged for a closer look

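Outside the main arms the CG8478 list held 10 peaks that enter no comparison above. Of these, 3 lay on the mitochondrial genome, 3 on U, 2 on Uextra and 1 each on 3LHet and 3RHet. The peak on 3RHet and 1 on Uextra overlapped no other list, and the other 8 did.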

How the results depend on the processing

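No paired analysis was possible because the labels name 1 list for all replicates of a group and the list has no value per replicate, and for the same reason no replicate could be left out. Leaving out each other list in turn gave 458 to 561 regions, the most without Su(H), with X shares of 22.2% to 23.7%, median scores of 5.71 to 5.86, median folds of 2.59 to 2.60, median widths of 230 to 242 bp, median gaps to another list of 3265 to 3642 bp and between neighbours of 52049 to 72989 bp. Set against the 4 Kc167 lists only, 839 regions were alone, with a median score of 6.13, fold of 2.66, width of 278 bp, gap to another list of 12687 bp and gap between neighbours of 32951 bp. The top-scoring 50% of CG8478 peaks gave 162 regions, 27.8% of them on X, with medians of 7.72 for score, 2.96 for fold and 342.5 bp for width, a gap of 4970 bp to another list and of 343814 bp between neighbours. With the top-scoring 50% of each other list, 637 regions were alone. Their medians were 5.95 for score, 252 bp for width, 5484 bp to another list and 48543 bp between neighbours. The gap to another list was 5029 bp when a distance of up to 500 bp counted as shared, 2461 bp with summits within 250 bp and 4785 bp without the anti-GFP lists. In the same order, 367, 513 and 623 regions were alone. Counting a peak as shared only where at least 50% of the shorter peak overlapped gave 488 regions. Peaks set to 400 bp around the summit gave 440. Cutting longer lists to the length of the CG8478 list put 38.9% of its peaks alone. The X share was 20.1% against the Kc167 lists only, 21.2% without the anti-GFP lists and 21.8% with the top-scoring 50% of each other list. Under the changed overlap rules and peak widths it was 23.2% to 24.5%. It was 19.2% with each run counted once and 18.1% without runs of 3 or more, both chosen after seeing the data. Depth is unknown, so a list without a peak does not show that a regulator is absent there.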
